A study of Mus musculus with 27 samples.

Results

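The genes described here are 9 regulators of muscle protein loss, namely the ubiquitin ligase genes Fbxo32, Trim63, Fbxo30, Fbxo21 and Fbxo31, the forkhead factors Foxo1, Foxo3 and Foxo4, and the Krüppel-like factor Klf15. They were chosen by name, and each matched 1 of the 54532 genes in the expression table. RNA of the tibialis anterior was sequenced from 27 samples of male C57BL/6 mice aged 8 weeks. In volumetric muscle loss (VML), 40% of that muscle was cut away. The groups were uninjured muscle (n = 5) and muscle taken 3 days (n = 5), 7 days (n = 6), 14 days (n = 6) and 21 days (n = 5) after VML. The labels name no altered allele, drug or implant in any group. Each sample was a whole piece of muscle, so a lower level from fewer fibres and a lower level from less RNA per fibre cannot be told apart.

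Muscle loses protein largely through the proteasome, to which proteins are sent by a chain of ubiquitin. E3 ubiquitin ligases choose the proteins to be tagged. Fbxo32 encodes atrogin-1 and Trim63 encodes MuRF1, the ligases used most often as markers of atrophy. FoxO factors switch on both genes when insulin and Akt signalling is low, since Akt keeps FoxO proteins phosphorylated and out of the nucleus. Glucocorticoids act on the same programme through their receptor and through Klf15, which it induces.

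Across the samples, 14376395 to 24436763 reads could be recovered from the deposited values, which are FPKM (fragments per 1 kilobase of a gene, adjusted for depth). Levels of different genes are compared here as FPKM, which is per length. Changes are log2 differences of FPKM + 1 from limma, and a gene is called at a Benjamini-Hochberg adjusted p under 0.05 over the 14630 genes tested. All 9 genes passed the filter for testing, and the least covered value, Fbxo30 in its lowest sample, rested on 87 reads. The samples were read as muscle, since the 14 muscle fibre markers summed to between 25560 and 125000 FPKM in every sample. Against uninjured muscle, 11 of those markers fell on day 3 and 0 were called on day 21 (limma), while the 9 macrophage and leukocyte markers rose from a summed 17.7 to 25.8 FPKM in uninjured muscle to 318 to 2154 FPKM on day 3. The 6 fibroblast markers summed to 46.1 to 118 FPKM in uninjured muscle, 425 to 863 FPKM on day 3 and 125 to 219 FPKM on day 21. All marker levels and changes, the falls of the fibre markers included, are given on the deposited scale only. No marker of these lists was at 0 in every sample, and the part of other cells in the changes was not tested. By its whole profile, 9 of the 27 samples lay nearer to the mean of another group than to that of their own. Among these, day 3 replicate 5 lay nearest to day 7 and day 7 replicate 5 nearest to day 3, and the reason was not tested.

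The choice of scale matters for the changes that follow. As deposited, the FPKM place the median gene at a log2 change of 0.01 on day 3, so a change is read against the typical gene. Rescaling every sample to a common sum of FPKM moved the change of the median gene up by 0.49 on day 3, 0.45 on day 7, 0.27 on day 14 and 0.10 on day 21 relative to uninjured muscle. Dividing by each sample's own total of reads moved it up by 0.39, 0.33, 0.23 and 0.10. On the FPKM + 1 scale genes with a high FPKM move more than genes with a low FPKM.

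Among the 9 genes, those that changed against uninjured muscle fell. At day 3, 4 were lower and 0 were higher, namely Fbxo32, Klf15, Foxo4 and Fbxo31 (limma), against 19.8% of all genes tested called lower and 23.4% called higher. Fbxo32, Foxo4 and Fbxo31 were again lower on day 7 and on day 14, when 14.4% and 11.3% of all genes were called lower. At day 21 Fbxo32 alone among the 9 was called, against 1.69% of all genes called lower. Every day 21 sample of Fbxo31 and Foxo4 was also below every uninjured sample, as for 5.13% of all genes tested. Trim63, Fbxo30, Fbxo21, Foxo1 and Foxo3 were called at no time point. The median change over the 9 genes was -0.30 on day 3, -0.10 on day 7, -0.40 on day 14 and -0.07 on day 21, against 0.01, 0.03, 0.02 and 0.01 over all genes. With a common sum per sample, no fall of Fbxo32, Foxo4, Fbxo31 or Klf15 was called at any time point, the genes called were Fbxo21 and Foxo3 on day 3 and Fbxo21, Foxo1 and Foxo3 on day 7, all higher, and none of the 9 was called on day 14 or day 21.

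**Figure D1:**
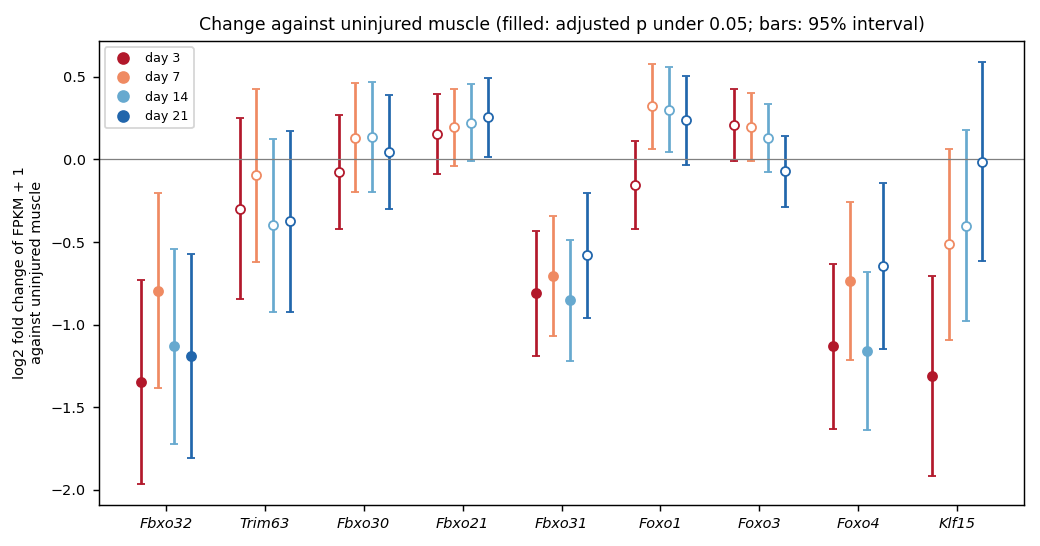
Log2 fold change of FPKM + 1 against uninjured muscle (vertical axis) for each of the 9 genes (horizontal axis) at the 4 time points, with 95% intervals from limma and filled points where the adjusted p was under 0.05. Fbxo32 is filled at every time point and lies between -1.35 and -0.79, Fbxo31 and Foxo4 are filled until day 14, and Klf15 starts at -1.31 and ends at -0.01.

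Fbxo32 (ENSMUSG00000022358, GRCm38 chr15:58175879-58214932, minus strand) encodes the substrate receptor of a Skp1, Cul1 and Rbx1 ligase whose known substrates include MyoD and eIF3f. In uninjured muscle its level was 25.2, 30.1, 33.1, 42.6 and 30.2 FPKM. At day 3 it was 13.5, 11.9, 20.9, 15.3 and 4.37 FPKM, all below every uninjured sample. The lowest, median and highest levels were 11, 18.5 and 27.7 FPKM on day 7 and 8.01, 14.2 and 19 FPKM on day 14. At day 21 the levels were 13.4, 13.2, 15.3, 18.2 and 8.54 FPKM. Every sample on days 3, 14 and 21 was below the uninjured range, as for 16.5%, 8.05% and 5.13% of all genes tested. On day 7, 2 of the 6 samples lay inside it. The log2 fold change was -1.35 ± 0.30 (SE, adjusted p = 0.000833) on day 3, -0.79 ± 0.29 (adjusted p = 0.0393) on day 7, -1.13 ± 0.29 (adjusted p = 0.00793) on day 14 and -1.19 ± 0.30 (adjusted p = 0.0274) on day 21. The level on day 21 differed from that on day 3 by 0.15 on the log2 scale, with a 95% interval of -0.46 to 0.77. With a common sum per sample the change was -0.56 on day 3 (adjusted p = 0.272), -0.09 on day 7 (adjusted p = 0.863), -0.67 on day 14 (adjusted p = 0.247) and -0.99 on day 21 (adjusted p = 0.402). Fbxo32 was called on neither day 7 nor day 21 without the filter on low values (adjusted p = 0.0859 and 0.0636) or with quantile normalization (adjusted p = 0.119 and 0.0605). The call on day 21 was also lost when any 1 of uninjured replicates 3, 4 and 5 or of day 21 replicates 1, 2 and 5 was left out, with changes of -1.21 to -1.04, and the call on day 7 was lost without any 1 of uninjured replicates 2 to 5 or day 7 replicates 3 to 6, with changes of -0.82 to -0.66. Its exons share 186 bases with the antisense gene Gm15943, and the library did not mark strand, so reads there cannot be split, although Gm15943 reached at most 2.13 FPKM.

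Trim63 (ENSMUSG00000028834, chr4:134315120-134329629, plus strand) encodes a RING finger ligase of the sarcomere that binds titin and tags myosin and other thick filament proteins. It was the most abundant of the 9 genes in uninjured muscle, at 58.1, 70.6, 60.7, 80.3 and 62.5 FPKM. At day 3 the levels were 50.3, 49.5, 93.0, 64.3 and 29 FPKM, on both sides of the uninjured range. They ran from 31.4 to 109 FPKM with a median of 64.7 on day 7, and from 41.7 to 66.2 FPKM with a median of 49.2 on day 14. Day 21 samples had 53.3, 58.7, 53.8, 57.2 and 34.6 FPKM. The log2 change was between -0.40 and -0.10 at the 4 time points, with adjusted p of 0.271 to 0.808, and its 95% interval on day 3 was -0.85 to 0.25. With a common sum per sample its sign turned to positive on days 3, 7 and 14, reaching 0.51 on day 3 and 0.62 on day 7, as it did on days 3 and 7 with the own total of reads and on day 7 with quantile normalization, without a call.

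The stretch upstream of Trim63 is shown because it holds letters known to bind the regulators described here. RefSeq promoter sequences were found for 7 of the 9 genes, and 250 bases before each start site were searched on both strands. The FoxO element GTAAACA, or TGTTTAC on the other strand, was present in 1 of the 7, Trim63, and in 3.17% of 32851 mouse promoters. The full glucocorticoid element, AGAACA and TGTTCT with 3 bases between them, was in none of the 7 and in 0.00913% of all promoters. After the letters were seen, a form 1 base shorter at each end, GAACA and TGTTC with 3 bases between them, was searched, and Trim63 and 0.0396% of all promoters held it. In the Trim63 sequence (GRCm38.p6, chr4:134314870-134315119, plus strand) that shorter form begins 208 bases and the FoxO element 194 bases before the start site. Capitals mark the 2 elements.
Trim63 upstream: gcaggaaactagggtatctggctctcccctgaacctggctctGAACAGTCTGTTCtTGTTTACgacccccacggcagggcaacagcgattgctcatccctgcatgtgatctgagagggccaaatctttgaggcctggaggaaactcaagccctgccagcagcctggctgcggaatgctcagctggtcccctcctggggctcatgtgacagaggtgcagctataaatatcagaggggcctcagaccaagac
A match describes the letters only.

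Because a rescaling of a sample moves both ligases alike, the ratio of Fbxo32 to Trim63 within a sample was taken as well, a measure chosen after the levels had been seen. On the log2 scale it was -1.21, -1.23, -0.88, -0.91 and -1.05 in uninjured muscle. It was -1.89, -2.06, -2.15, -2.07 and -2.73 on day 3 and -2.0, -2.16, -1.81, -1.65 and -2.02 on day 21. Every injured sample lay below every uninjured sample, with a highest value of -1.44 on day 7 and -1.45 on day 14. The mean difference from uninjured muscle was -1.13 on day 3, -0.73 on day 7, -0.78 on day 14 and -0.87 on day 21. The two-sided exact permutation tests (n = 5 or 6) gave p = 0.00794, 0.00433, 0.00433 and 0.00794, which became 0.00952, 0.00866, 0.00866 and 0.00952 after adjustment over 12 tests of 3 such ratios. These are the smallest p that 5 against 5 and 6 against 5 samples allow. The adjustment does not cover the choice of this pair after the levels had been seen, so the p-values describe the separation only. How many other pairs of genes separate as fully is not given. With any 1 sample left out, the difference on day 21 stayed between -0.94 and -0.81.

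Fbxo31, Fbxo30 and Fbxo21 encode further F-box proteins that FoxO is known to induce in wasting muscle, Fbxo30 being MUSA1 and Fbxo21 being SMART. Fbxo31 (ENSMUSG00000052934, chr8:121549440-121578806, minus strand) had 28.6, 24.6, 28.2, 23.8 and 34.0 FPKM in uninjured muscle. At day 3 it had 17.5, 18.8, 16.2, 14.7 and 10.7 FPKM, and on day 21 it had 16.2, 16.2, 18.2, 23 and 17.8 FPKM. On days 3, 7 and 21 every sample was below the uninjured range, as for 16.5%, 5.37% and 5.13% of all genes tested. Of the 22 samples after VML, only 1, on day 14 with 24.1 FPKM, was inside that range. Its change was -0.81 ± 0.18 (SE, adjusted p = 0.000992) on day 3, -0.71 ± 0.18 (adjusted p = 0.00471) on day 7, -0.85 ± 0.18 (adjusted p = 0.00219) on day 14 and -0.58 ± 0.18 (adjusted p = 0.077) on day 21. With a common sum per sample the changes on days 3 and 7 were -0.02 and -0.01, and that on day 14 was -0.40 (adjusted p = 0.215). The day 21 change passed the threshold in 4 alternatives, among them a fit of only the 2 groups (adjusted p = 0.0175).

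Fbxo30 (ENSMUSG00000047648, chr10:11281330-11298052, plus strand) and Fbxo21 (ENSMUSG00000032898, chr5:117976730-118010201, plus strand) were expressed at a lower level. Fbxo30 averaged 2.12 ± 0.34 FPKM (SD, n = 5) in uninjured muscle and 2.0 ± 0.63 (n = 5), 2.48 ± 0.78 (n = 6), 2.46 ± 0.65 (n = 6) and 2.23 ± 0.46 (n = 5) on days 3, 7, 14 and 21. Its change was between -0.08 and 0.13 with adjusted p of 0.568 to 0.913, and its sign turned on day 3 with a common sum per sample (0.48) or the own total of reads and on day 21 with quantile normalization (-0.02). Fbxo21 averaged 1.73 ± 0.35 FPKM (n = 5) in uninjured muscle and between 2.04 and 2.25 FPKM at the 4 time points. Its change was 0.15 on day 3 and 0.25 on day 21 (95% interval 0.01 to 0.50, adjusted p = 0.226). Fbxo21 was called higher on days 3 and 7 when samples were rescaled (0.70 and 0.69 with a common sum, adjusted p = 0.0103 and 0.0124), whereas with quantile normalization its day 3 change was negative.

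**Figure D2:**
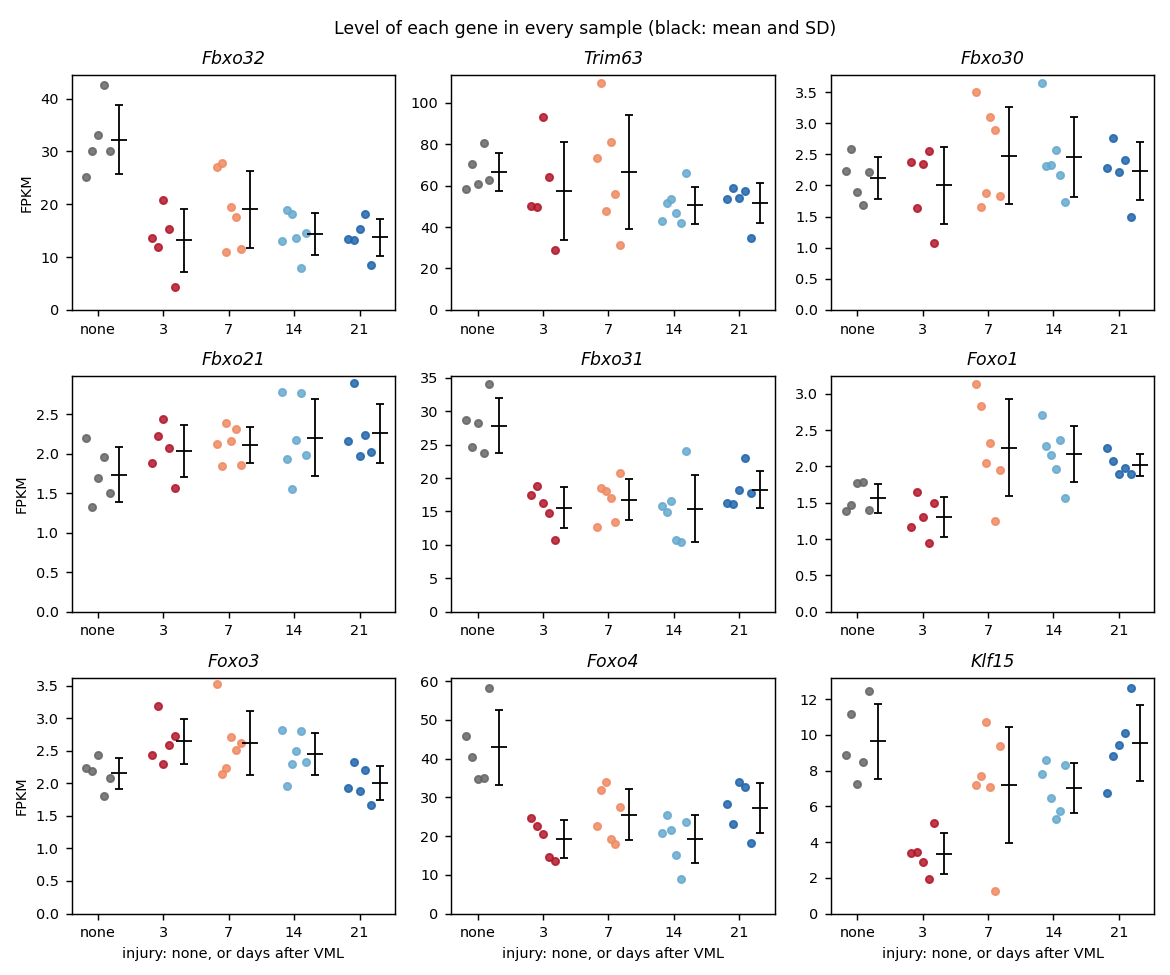
FPKM (vertical axis, from 0) in each of the 27 samples by group (horizontal axis), 1 panel per gene, with the mean and SD in black. Fbxo32 falls from a mean of 32.2 FPKM in uninjured muscle to 13.2 on day 3 and 13.7 on day 21, Trim63 groups overlap throughout, and Klf15 returns from 3.34 on day 3 to 9.55 on day 21.

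Of the FoxO genes, Foxo4 had the highest FPKM and fell after VML, while Foxo1 and Foxo3 were called at no time point. Foxo4 (ENSMUSG00000042903, chrX:101254528-101260873, plus strand), like its relatives a forkhead factor under Akt control, had 45.7, 40.5, 34.8, 35.1 and 58.3 FPKM in uninjured muscle. At day 3 it had 24.7, 22.7, 20.5, 14.6 and 13.5 FPKM. Day 7 samples ran from 18.1 to 33.8 FPKM with a median of 25.1, and day 14 samples from 8.89 to 25.5 FPKM with a median of 21.2. At day 21 the levels were 28.2, 23.2, 33.9, 32.6 and 18.3 FPKM. All 22 samples after VML were below the lowest uninjured sample, which was the case for 16.5% of all genes tested on day 3, 5.37% on day 7, 8.05% on day 14 and 5.13% on day 21. Its change was -1.13 ± 0.24 (SE, adjusted p = 0.000588) on day 3, -0.74 ± 0.23 (adjusted p = 0.0197) on day 7, -1.16 ± 0.23 (adjusted p = 0.00182) on day 14 and -0.64 ± 0.24 (adjusted p = 0.137) on day 21. With a common sum per sample the changes were -0.34, -0.03 and -0.70 on days 3, 7 and 14, and none was called. The day 7 call was also lost without uninjured replicate 5, day 7 replicate 4 or day 7 replicate 5 (-0.67 to -0.62).

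Foxo1 (ENSMUSG00000044167, chr3:52268336-52353221, plus strand), known to be induced in fasting and to raise both atrophy ligases when active, had 1.39, 1.48, 1.77, 1.79 and 1.40 FPKM in uninjured muscle. At day 3 the levels were 1.17, 1.64, 1.30, 0.942 and 1.5 FPKM. Day 7 samples ran from 1.25 to 3.13 FPKM with a median of 2.19, and day 14 samples from 1.57 to 2.71 FPKM with a median of 2.22. At day 21 the levels were 2.25, 2.07, 1.89, 1.98 and 1.89 FPKM. Every day 21 sample was above every uninjured sample, as were 5.26% of all genes, yet the change was 0.24 ± 0.13 (SE, adjusted p = 0.315). At day 7 the change was 0.32 ± 0.12 (adjusted p = 0.0532), and 5 of 6 samples were above the uninjured range. The exception, day 7 replicate 5 at 1.25 FPKM, had a summed 2026 FPKM of macrophage and leukocyte markers against 49.1 to 415 in the other 5. The day 7 change passed the threshold in 7 of 15 alternatives, with up to 0.80 with a common sum (adjusted p = 0.00579), and the day 14 change in 4 of them. Without that sample and day 3 replicate 5, the day 7 change was 0.42 (adjusted p = 0.00939) and the day 14 change 0.30 (adjusted p = 0.0427). The level on day 21 was 0.39 ± 0.13 above that on day 3 (adjusted p = 0.0281, limma), where 9.23% of all genes were called higher, and with a common sum per sample that difference was 0.01. This call was lost without any 1 of day 3 replicates 1, 3 and 4 or day 21 replicates 1 and 2, with differences of 0.33 to 0.39. The day 3 change itself was -0.16 and turned positive (0.33) with a common sum. Exons of Foxo1 share 674 bases with the antisense gene Gm20402, which was listed at 0 in every sample.

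Foxo3 (ENSMUSG00000048756, chr10:42181841-42276755, minus strand), the family member best known for driving atrogin-1 and autophagy genes, averaged 2.15 ± 0.23 FPKM (SD, n = 5) in uninjured muscle. It averaged 2.65 ± 0.35 (n = 5), 2.62 ± 0.49 (n = 6), 2.45 ± 0.33 (n = 6) and 2.0 ± 0.26 FPKM (n = 5) on days 3, 7, 14 and 21. At day 3, 3 of 5 samples were above the uninjured range, and the change was 0.21 (95% interval -0.01 to 0.42, adjusted p = 0.113). It was called higher on days 3 and 7 in the rescaled data (0.79 and 0.72 with a common sum, adjusted p = 0.00421 and 0.00927). Day 21 differed from day 3 by -0.28 ± 0.10 (adjusted p = 0.051), and the uncalled change of -0.07 on day 21 turned positive with a common sum (0.06).

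The proportions of the 3 FoxO genes within a sample, chosen for description after the levels had been seen, do not depend on the scaling between samples. Foxo4 supplied 92.7, 91.7, 89.2, 90.7 and 94.4% of their summed FPKM in uninjured muscle and 87.3, 82.4, 85.1, 80.5 and 76.1% on day 3. The lowest value, 63.2%, was on day 14. The mean differed from that of uninjured muscle by -9.45 percentage points on day 3 (two-sided exact permutation test, p = 0.00794), -8.33 on day 7 (p = 0.00433), -12.7 on day 14 (p = 0.00433) and -5.04 on day 21 (p = 0.0159), with adjusted p of 0.00866 to 0.0173. The share of Foxo1 rose from 3.52 ± 1.05% (SD, n = 5) in uninjured muscle to 5.84 ± 1.63% (n = 5) on day 3. It was 7.52 ± 2.18% (n = 6) on day 7, 9.81 ± 3.85% (n = 6) on day 14 and 6.71 ± 1.51% (n = 5) on day 21. Adjusted p was 0.00866 to 0.0238 in the same exact permutation tests. The shares of Foxo1 and Foxo4 are parts of the same sum, so their tests are not independent. The adjustment does not cover their choice after the levels had been seen. On day 3 the mean of Foxo1 itself was lower, 1.311 against 1.565 FPKM, while that of Foxo4 was 19.18 against 42.9 FPKM. A further family member, Foxo6, which lies outside the 9 genes, averaged 7.42 ± 2.04 FPKM (n = 5) in uninjured muscle and was not part of these shares.

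**Figure D3:**
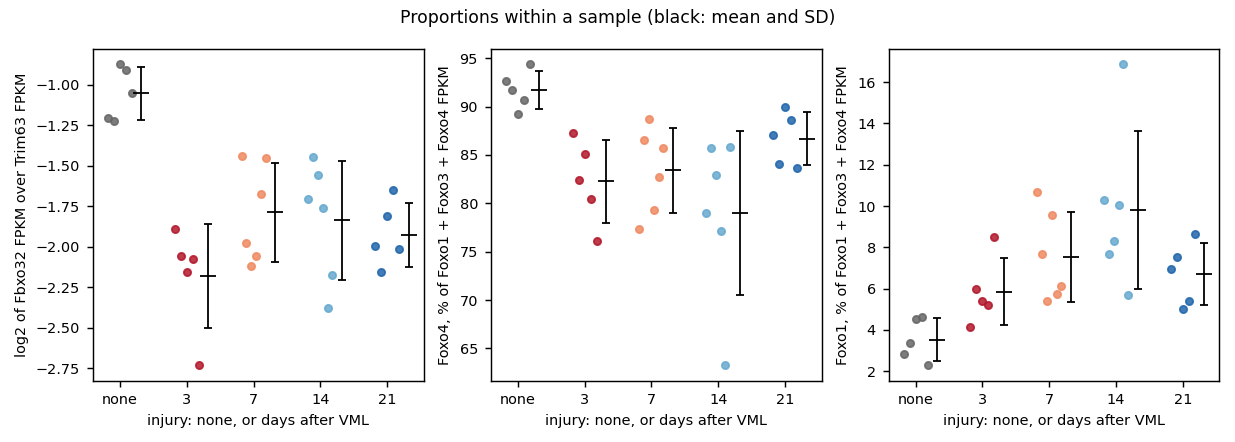
Values within each sample by group, with the mean and SD in black: the log2 ratio of Fbxo32 to Trim63 FPKM (left), and the percentage of the summed Foxo1, Foxo3 and Foxo4 FPKM that came from Foxo4 (middle) and from Foxo1 (right). The vertical axes do not start at 0; all 22 injured samples lie below the uninjured samples on the left, and the share of Foxo1 is above the uninjured samples in all samples on days 7, 14 and 21.

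Klf15 fell early and came back. Klf15 (ENSMUSG00000030087, chr6:90462576-90475238, plus strand) is a zinc finger factor that glucocorticoids induce and that drives the breakdown of branched-chain amino acids in muscle. In uninjured muscle it had 8.88, 11.2, 7.24, 8.50 and 12.4 FPKM. On day 3 it had 3.38, 3.42, 2.88, 1.95 and 5.08 FPKM, all below the uninjured range, as for 16.5% of all genes tested. At day 7 the lowest, median and highest levels were 1.23, 7.45 and 10.7 FPKM, and on day 14 they were 5.28, 7.14 and 8.58 FPKM. At day 21 it had 6.77, 8.83, 9.42, 10.1 and 12.6 FPKM, which spans the uninjured range. The change was -1.31 ± 0.29 (SE, adjusted p = 0.00087) on day 3, -0.51 ± 0.28 (adjusted p = 0.169) on day 7, -0.40 ± 0.28 (adjusted p = 0.319) on day 14 and -0.01 ± 0.29 (adjusted p = 0.99) on day 21. The rise from day 3 to day 21 was 1.30 ± 0.29 (adjusted p = 0.00213), and it passed the threshold in all 15 alternatives other than single samples left out, with 0.79 to 1.55. With a common sum per sample the change on day 3 was -0.63 (adjusted p = 0.0797), and the uncalled changes on days 7 and 14 turned positive (0.10 and 0.03). The 1.23 FPKM on day 7 belonged to replicate 5, the sample rich in macrophage and leukocyte markers, whose whole profile lay nearest to day 3. Over all 27 samples, the log2 level of Klf15 had a Pearson correlation of -0.89 (Spearman -0.72) with the mean of those markers and of 0.83 (Spearman 0.74) with the mean of the fibre markers, and within groups these were -0.84 and 0.71. The samples share the time course of injury, and the part of the cell mixture in the fall of Klf15 was not tested.

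The upstream stretch of Klf15 is shown for comparison with that of Trim63, since both genes are known targets of the glucocorticoid receptor and no FoxO or full glucocorticoid element was found in it. It holds the E-box CANNTG at 2 places, as 66.2% of all promoters do at 1 or more, and both are CACGTG, a form looked for after the letters were seen and found in 6.02% of promoters. They begin 228 and 172 bases before the start site and are in capitals (RefSeq, GRCm38.p6, chr6:90462326-90462575, plus strand).
Klf15 upstream: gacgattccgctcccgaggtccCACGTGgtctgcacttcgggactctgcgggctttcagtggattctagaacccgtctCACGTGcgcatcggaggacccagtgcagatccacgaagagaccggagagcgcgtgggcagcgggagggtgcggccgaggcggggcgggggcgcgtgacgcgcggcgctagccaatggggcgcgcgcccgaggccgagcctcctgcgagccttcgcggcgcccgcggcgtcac
Trim63 held 3 E-boxes in its 250 bases, Foxo1 held 1, and in the windows of Fbxo21, Fbxo30, Fbxo31 and Foxo3 these letters were not found.

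The 14 fibre markers did not move alike, with day 3 changes from -2.31 (Pvalb) to -0.095 (Tnnc2). To compare the 9 genes with the level of these markers in each sample, their mean log2 level was subtracted from each gene, as a description without a test. On the deposited scale that mean differed from its uninjured value by -1.28 on day 3, -0.87 on day 7, -0.59 on day 14 and -0.38 on day 21. Its change with other scalings is not given. Relative to the fibre marker mean, Fbxo32 differed from uninjured muscle by -0.06 on day 3, 0.08 on day 7, -0.54 on day 14 and -0.81 on day 21. At day 21 all 5 samples were below the uninjured samples on this scale, with -7.32 to -6.65 against -6.56 to -5.73, as were 0.54% of all genes tested. Klf15 differed by -0.03 on day 3 and by 0.37 on day 21, and Foxo4 by 0.15 and -0.27, with overlapping groups. Trim63 was 0.98 higher on day 3 and 0.00 on day 21, also with overlap. Fbxo21, Foxo1 and Foxo3 were above all uninjured samples on day 3, by 1.43, 1.13 and 1.49, where 74.3% of all genes were and the median over all genes was 1.29.

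**Figure D4:**
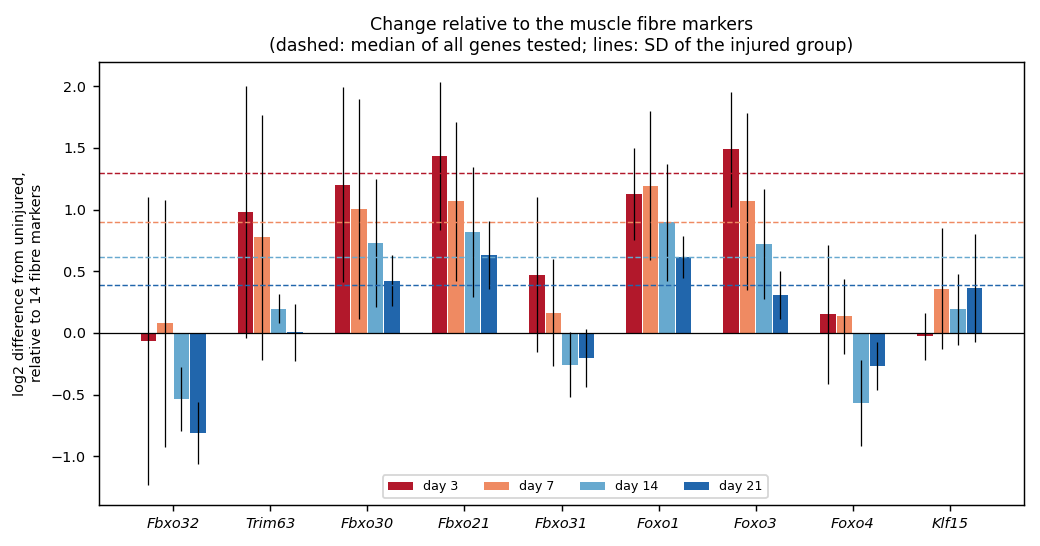
Difference from uninjured muscle in log2 level relative to the mean of 14 muscle fibre markers (vertical axis) for the 9 genes at 4 time points. Lines on the bars are the SD of the injured group and dashed lines the median of all genes tested (1.29 on day 3, 0.39 on day 21). Fbxo32 is at -0.81 on day 21, the lowest of the 9.

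The atrophy ligases and the fibre markers varied differently within groups. The correlation of Fbxo32 with the fibre marker mean, as deviations from group means over 27 samples, was -0.27, and that of Trim63 was -0.24, against 0.62 for Foxo4 and 0.71 for Klf15. Without that centring on groups it was 0.26 (Spearman 0.32) for Fbxo32, -0.06 (0.08) for Trim63, 0.71 (0.84) for Foxo4 and 0.83 (0.74) for Klf15. In day 3 replicate 5, with the highest summed fibre markers of its group (74480 FPKM), Fbxo32 was at its lowest, 4.37 FPKM. Likewise the 2 lowest Fbxo32 levels on day 7, 11 and 11.5 FPKM, were in the samples with the highest summed fibre markers, 119600 and 109200 FPKM. Other days differed: on day 21 the highest Fbxo32 level was in the sample with the highest summed fibre markers, 125000 FPKM, and on day 14 the lowest, 8.01 FPKM, was in a sample with 59210 FPKM of them. Fbxo32 and Trim63 varied together, with a Pearson correlation of 0.78 (Spearman 0.82) over 27 samples and 0.85 within groups. Fbxo31 and Foxo4 did so as well, with 0.87 (Spearman 0.82) and 0.73. Between Fbxo32 and Foxo4 it was 0.66 (Spearman 0.56) and 0.38 within groups, and between Fbxo32 and Foxo1 or Foxo3 it was 0.01 and -0.21 (Spearman -0.10 and -0.33) and 0.13 and -0.12 within groups.

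The genes most like each of the 9 over 27 samples, by Pearson correlation of log2 levels, were as follows. Fbxo32 was followed most closely by Mettl11b (0.86), Prune1 (0.83) and Mapt (0.79), and Trim63 by Psmd13 (0.76), a lid subunit of the proteasome, Eif3c (0.75) and Cavin4 (0.73), a muscle caveolar protein. Fbxo31 was closest to Keap1 (0.91), itself the adaptor of a Cul3 ubiquitin ligase, Zfp651 (0.91) and Ubqln4 (0.90), a ubiquitin receptor. Foxo4 was closest to Kif1c (0.96), Zfp652 (0.95) and Polr2m (0.94), and Klf15 to Lrrc30 (0.92), Oplah (0.91) and B3galnt2 (0.90). For Foxo1 they were Ypel2, Kidins220 and Arrdc3, a FoxO-responsive arrestin (all 0.81), and for Foxo3 Plod2, Lrig3 and Fut11 (0.71 to 0.72). Fbxo30 and Fbxo21 had the weakest matches, at most 0.71 (Eif3a) and 0.65 (Zfp420). Only some of these genes are described by function, and a shared function among them was not tested.

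Other ubiquitin ligases of muscle mostly fell where they changed. Of 20 tested, 10 were lower and 1 was higher on day 3, 7 and 1 on day 7, 6 and 1 on day 14, and 2 and 1 on day 21, with medians of -0.31, -0.29, -0.20 and -0.17. Asb2, a Cul5 adaptor that degrades filamins, fell from 258 ± 33.6 FPKM (SD, n = 5) to 63.9 ± 10.9 (n = 5) on day 3 and was 99.1 ± 11.4 (n = 5) on day 21, with log2 changes of -2.01 (adjusted p = 2.49e-06) and -1.37 (adjusted p = 0.00432). Kbtbd13, a Cul3 adaptor of the sarcomere, changed by -1.74 and -1.24 at the same days (adjusted p = 5.2e-05 and 0.0186). Fbxo40, which tags Irs1, fell by 1.38 on the log2 scale on day 3. Fbxl22, an F-box protein of the sarcomere, was the exception and rose at all 4 time points, from 2.21 ± 0.79 FPKM (n = 5) to 8.43 ± 1.19 (n = 5) on day 3 and 5.65 ± 1.01 (n = 5) on day 21, with changes of 1.58 and 1.07. At day 3, 5 of the 11 calls changed sign in the rescaled data (Stub1, Trim55, Mdm2, Ubr2 and Nedd4l), and 0 of the 3 on day 21 did. Among 25 other F-box only genes tested, 7 were lower and 4 higher on day 3, led by Fbxo40, Fbxo5 (1.41), which restrains the cell cycle ligase APC/C, Fbxo9 (-0.99) and Fbxo3 (-0.98), and on day 21 only Fbxo8 was called (-0.53). The core subunits Skp1a, Cul1 and Rbx1 that hold such F-box proteins gave 1 call on day 3, Skp1a (-0.55), whose sign turned in the rescaled data. Beside these counts, 19.8% of all genes tested were called lower and 23.4% higher on day 3. On days 7, 14 and 21, 14.4%, 11.3% and 1.69% were called lower, and the share called higher is not given here.

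**Figure D5:**
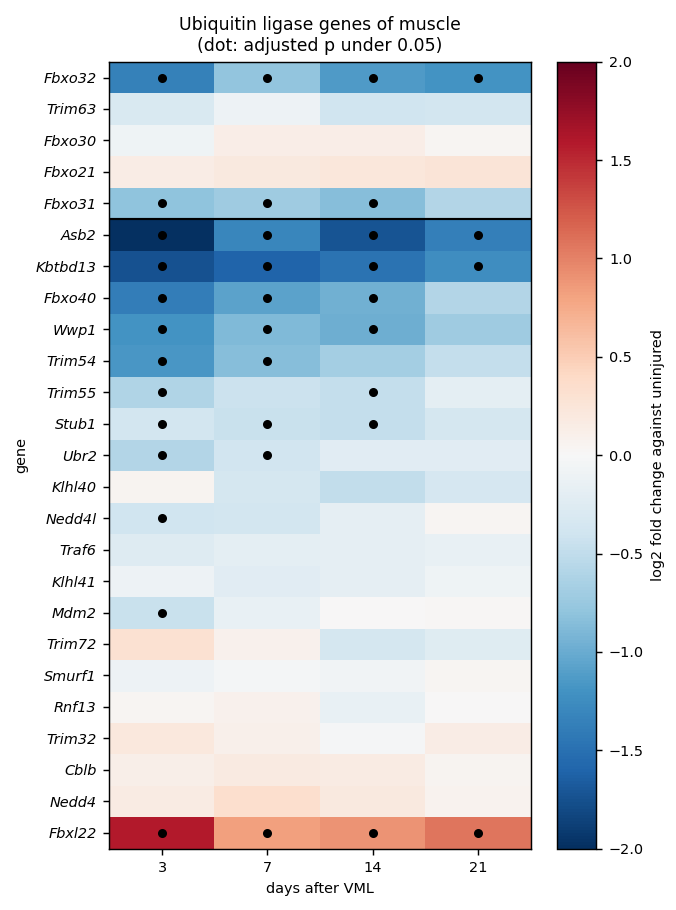
Log2 fold change against uninjured muscle (colour) for the 5 ligase genes described here (above the line) and 20 other muscle ubiquitin ligases (below it, ordered by mean change) on days 3, 7, 14 and 21, with a dot where the adjusted p was under 0.05. Fbxo32, Asb2 and Kbtbd13 carry a dot at every time point and are lower, and Fbxl22 carries a dot at every time point and is higher.

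Known targets of FoxO moved in both directions. Of 20 tested, 9 were lower and 5 higher on day 3, 7 and 3 on day 7, 5 and 2 on day 14, and 2 and 2 on day 21. Pink1, a mitophagy kinase, and Pdk4, which restrains glucose oxidation, changed by -1.71 and -1.62 on day 3 (adjusted p = 2.04e-05 and 5.52e-05), and Pdk4 was still lower on day 21 (-0.98, adjusted p = 0.045). Txnip, a brake on glucose uptake, was lower at every time point, with -1.28 on day 3 and -1.01 on day 21. The growth arrest genes Cdkn1a and Gadd45a rose at every time point, by 2.97 and 1.80 on day 3 and by 2.30 and 2.98 on day 21. In the rescaled data the signs of Map1lc3b and Cdkn1b turned on day 3. Of 22 inputs to FoxO, 7 were lower and 5 higher on day 3, among them the AMP-activated kinase subunit Prkaa2 (-1.26) and myostatin, Mstn (-1.11), below and the FoxO-binding adaptor Ywhaz (1.35) and the kinase Akt1 (0.89) above. The signs of 3 of the 7 lower calls, Sgk1, Smad3 and Crebbp, turned with a common sum per sample. At day 21 only Pik3ca was called (-0.50, adjusted p = 0.0333). Beside the targets and the inputs, 19.8% of all genes tested were called lower and 23.4% higher on day 3. On days 7, 14 and 21, 14.4%, 11.3% and 1.69% were called lower. The share called higher on those days is not given here, so the higher counts there stand without a background.

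The glucocorticoid receptor and its targets also divided. Of 12 tested, 4 were higher and 3 lower on day 3, with Mt1 (2.57), Angptl4 (1.93) and Ddit4 (1.49) above and Zbtb16 (-1.08) below. At day 21, 3 were higher, namely Ddit4 (1.69), Per1 (1.26) and Glul (1.17), and 2 were lower, Zbtb16 (-0.82) and Fkbp5 (-0.60). The receptor gene itself, Nr3c1, was lower on day 3 (-0.45, adjusted p = 0.02) with a sign that turned in the rescaled data. Of 10 tested genes listed under Klf15, most of them in amino acid breakdown, 8 were lower on day 3, 6 on day 7, 3 on day 14 and 0 on day 21, where limma gave a median change of -0.34, and none was higher. Of all genes 19.8%, 14.4% and 11.3% were called lower on days 3, 7 and 14. The fibre marker mean differed by -1.28, -0.87 and -0.59 on the deposited scale, and its part in these falls was not tested. Klf15 itself was called on day 3 but not on days 7 and 14 (adjusted p = 0.169 and 0.319). The sign of 1 of the 8 calls on day 3, Bcat2, turned in the rescaled data. The largest falls on day 3 were those of the glucose transporter Slc2a4 (-1.56), of Aldh6a1 (-1.46), of the kinase Bckdk (-1.14) and of Bckdhb (-1.04). Aldh6a1 and Bckdhb act in branched-chain amino acid breakdown, which Bckdk restrains. From day 3 to day 21, 6 of the 10 rose, led by Aldh6a1 (1.13) and Slc2a4 (0.98), and 0 fell. Of the 12 other Klf genes tested, 3 rose and 0 fell on day 3, Klf16 (0.92), Klf5 (0.87) and Klf3 (0.46). Beside this list and the glucocorticoid list, 23.4% of all genes tested were called higher and 19.8% lower on day 3. On day 21, 1.69% were called lower, and the share called higher is not given here. From day 3 to day 21, 9.23% were called higher.

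Other regulators of the atrophy ligases, a list that also holds Foxo6, included the largest rise on day 3 among the pathway genes. Myog, a myogenic factor that activates Fbxo32 and Trim63 after denervation, was higher by 5.63 on day 3 (adjusted p = 6.34e-06), 3.27 on day 7, 4.35 on day 14 and 3.50 on day 21. Ppargc1a, which restrains FoxO activity, changed by -1.22 on day 3, -0.91 on day 7 and -0.72 on day 14. Junb, a factor known to protect muscle mass, rose by 1.59 on day 3. The deacetylase gene Hdac4 was higher by 0.98 on day 14 and 0.94 on day 21. Of 12 such genes tested, 3 were higher and 3 lower on day 3, and 2 were higher and 0 lower on day 21. Over all genes tested, 23.4% were called higher and 19.8% lower on day 3. On day 21, 1.69% were called lower, and the share called higher is not given here. The signs of 2 of the 3 lower calls on day 3, Hdac5 and Mtor, turned in the rescaled data.

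Ordered by mean log2(FPKM + 1), neighbouring groups were seldom distinct. For each of the 9 genes the 5 groups gave 4 neighbouring pairs, and of these 36 pairs only uninjured muscle over day 7 for Fbxo32 was called. On that scale uninjured muscle stood highest for Fbxo32, Trim63, Fbxo31, Foxo4 and Klf15. Day 3 stood lowest for Fbxo32, Fbxo30, Foxo1 and Klf15, and day 14 for Trim63, Fbxo31 and Foxo4. By mean FPKM, Trim63 on day 7 and uninjured muscle were both at 66.5, and Foxo4 was at 19.2 on both day 3 and day 14.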

How the data were processed

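RNA-seq of 27 tibialis anterior samples was analysed from 1 table of FPKM. Per the labels and the methods of the study, the authors selected poly-T RNA, made non-directional libraries, aligned reads with HISAT2 (2.0.5), counted them with featureCounts (1.5.0-p3) and deposited FPKM per gene with GRCm38 coordinates. FPKM were calculated by the authors from each gene's length and mapped reads. In every sample 100.0% of values above 0 were whole multiples of 1 read, within 0.01 of a read, and the reads behind the deposited FPKM scaling averaged 0.782 (uninjured) to 1.25 (day 3) times the sample's own total, for which no reason is given in the sources used here. Coordinates of 9 of 9 genes matched GENCODE M21.

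Groups came from the sample titles. limma (3.58.1, R 4.3.3, with trend) was fitted to log2(FPKM + 1) of all 27 samples and 5 groups, for 14630 genes that reached an FPKM of 0.5 in 5 or more samples, and was tested on simulated data. A fold change on this scale understates the change of genes with low FPKM. Nothing says whether samples of a group came from separate mice, so p-values measure the spread between samples, which may be technical. Ratios within a sample were compared by two-sided exact permutation tests. The genes, lists and tests were chosen with earlier results of these data known. The text names the 9 genes, markers, the 3 genes most correlated with each of the 9, and from each pathway list in a comparison up to 4 called genes with the largest changes. Genes named because their sign turned with the scaling, Nr3c1, Foxo6 and, on day 21, Fkbp5 were named after their values were seen. Alternatives were other pseudocounts, filters, scalings, weights and fits, and samples left out.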

Additional observations from a re-analysis of the deposited data

Results flagged for a closer look

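In 45 combinations of gene and group, 2 held a sample far from the others, where chance flags about 1 in 20. Trim63 in day 21 replicate 5 had a gap to its neighbour of 0.819 of the group's range, with 34.6 FPKM against 53.3 to 58.7 in the other 4 samples. Fbxo32 was lowest in the same sample, at 8.54 FPKM. Klf15 in day 7 replicate 5 had a gap of 0.775 of the range, with 1.23 FPKM against 7.06 to 10.7 in the other 5 samples, and that sample summed 2026 FPKM of macrophage and leukocyte markers against 49.1 to 415. Their part in the value was not tested.

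For 2 genes the change against uninjured muscle differed between day 21 and day 3 in the test of the difference itself (limma). It differed by 1.30 for Klf15 (adjusted p = 0.00213) and by 0.39 for Foxo1 (adjusted p = 0.0281). Without any 1 sample the Klf15 difference was 1.17 to 1.43 and kept its call. That of Foxo1 was 0.33 to 0.44 and lost its call without day 3 replicates 1, 3 or 4 or day 21 replicates 1 or 2.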

How the results depend on the processing

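The number of the 9 genes called depended on the scale and, on day 21, on most settings. It was 4 on day 3, and 2 with a common sum per sample. It was 3 on day 7 and 1 with quantile normalization, and 3 on day 14 and 0 with a common sum. The counts do not show which genes were called. With a common sum they were others on days 3 and 7, all higher, namely Fbxo21, Foxo3 and, on day 7 only, Foxo1. On day 3 the falls of Fbxo32, Fbxo31 and Foxo4 each lost their call in 2 of 15 alternatives, among them the common sum. Only the common sum and the own total of reads moved the median gene far on day 3, by 0.49 and 0.39. Quantile normalization moved it by -0.13 and median-ratio scaling by 0.003, and most other alternatives kept the deposited scaling. A count out of 15 therefore does not measure how far a call depends on the scale. At day 21 it was 1, and 0 without the filter, with quantile normalization, with a common sum and with the own total of reads, 2 with only the 2 groups in the fit and 4 with sample quality weights. From day 3 to day 21 it was 2, and 4 with quality weights. For the 36 neighbouring pairs the count of 1 became 0 without the filter, 2 with only the 2 groups or without the samples numbered 5 on days 3 and 7, and 4 with quality weights. Leaving out 1 sample gave 4 to 4 on day 3, 1 to 4 on day 7, 3 to 4 on day 14, 0 to 2 on day 21, 1 to 3 from day 3 to day 21 and 0 to 2 neighbouring pairs. The count on day 7 was 1 without uninjured replicate 5 or day 7 replicate 4. Pseudocounts, the stricter FPKM minimum, median-ratio scaling, no trend and voom weights kept these counts within 1.5 times. With the replicate number or letter as a replicate block the count on day 21 was 2 or 3 and that of neighbouring pairs 2 or 3, with no other count moved by over 1.5 times. The column names number the samples in runs that share a replicate letter across groups. Nothing says whether same-numbered samples share an animal or a batch, and their values cannot exclude it. Deviations of same-numbered samples correlated from -0.521 to 0.566, over 0.1 in 15 of 51 pairs. Their median was -0.003, against 0.003 for other pairs, and 11 of 27 samples matched their own number best. The number of such matches to be had by chance is not given. The ratios within a sample, added after seeing the data, kept direction and p under 0.05 with any 1 sample left out. With 5 or 6 samples a group, 95% intervals of single genes spanned 0.41 to 1.24 log2 units.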
